A study of Mus musculus with 40 samples.

Results

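EC2 is 1 of the endothelial classes that the study's authors gave to nuclei of the mouse kidney. Its members were all nuclei with the value EC2 in the coarser of the authors' 2 deposited annotation columns, and there were 710 of them among 16500 nuclei. They came from the right kidneys of 4 male C57BL/6 mice, 8 to 12 weeks old, taken 24 h after surgery. The operation took away the left kidney in 2 mice (unilateral nephrectomy, UNx) and was a sham in the other 2, which are the controls. The first mouse of each group carries the label of batch 3 and the second that of batch 4. Sham replicates 1 and 2 gave 255 and 66 EC2 nuclei and UNx replicates 1 and 2 gave 297 and 92. Bulk RNA-seq of right kidney tissue from further mice of this strain, sex and age, with 6 libraries per operation at 24, 48 and 72 h, is used here for genes selective for EC2. No genotype other than the strain is labelled for any group.

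Kidney endothelium lines vessels with different tasks. Glomerular capillaries filter plasma, peritubular capillaries take back what the tubules reabsorb, and the descending and ascending vasa recta carry blood into and out of the medulla. The ascending limb and the veins have a fenestrated or venous lining, whereas the descending limb has a continuous lining that carries the urea transporter Slc14a1. Each bed is usually recognised by a few genes, which are used below as lists of markers.

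EC2 was endothelial by its markers. Levels are given as CPM, a gene's share of the summed estimated counts of a class in 1 mouse scaled to the usual common total, in the order sham replicate 1, sham replicate 2, UNx replicate 1, UNx replicate 2. Flt1, a receptor for vascular endothelial growth factor (VEGF), was at 1730, 573, 1568 and 790 CPM. Pecam1, the junction protein CD31, was at 926, 433, 956 and 591 CPM, and the sialomucin Emcn was at 2260, 1066, 2605 and 1216 CPM. After each nucleus had been thinned to 2000 unique molecular identifiers (UMIs, each marking 1 captured RNA molecule), 85.1%, 53.0%, 83.8% and 72.8% of EC2 nuclei held Flt1, against 0.418%, 6.13%, 1.17% and 4.88% of nuclei of the proximal tubule class PTS1. Without thinning the shares were 91.0%, 89.4%, 92.6% and 90.2% in EC2 and 3.34%, 21.7%, 3.51% and 19.8% in PTS1. Over 14210 genes, the mean log2 profile of EC2 was closest to that of EC1 among the 22 other classes with at least 10 nuclei in every mouse (Pearson's r = 0.966 across genes, a description only), ahead of the class named Per (r = 0.859).

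The 4 libraries differed by batch. The median nucleus of EC2 held 3912, 6297, 3974 and 5759 UMIs, and its median share of mitochondrially encoded RNA was 1.29%, 8.5%, 2.38% and 12.8%. Summed levels of 12 proximal tubule markers in EC2 were 5887, 18135, 9569 and 16000 CPM, and those of 17 general endothelial markers were 15089, 6741, 15949 and 7189 CPM. Tubule RNA was thus counted in every EC2 library, most in the 2 of batch 4, where the endothelial genes were low. EC1 had 12509 CPM of the tubule markers on average and EC2 12398 CPM. Over the whole series, 18 cell barcodes occurred in more than 1 library, and 3 of these belonged to EC2 nuclei in at least 1 library. Thick limb markers summed to 373 and 473 CPM in batch 3 and to 3079 and 3027 CPM in batch 4, distal and collecting duct markers to between 122 and 1161 CPM, and red blood cell markers to between 332 and 1070 CPM. By comparison, 9 mural markers summed to between 12.8 and 79.2 CPM, 8 fibroblast markers to between 13.3 and 63.7 CPM and 10 immune markers to between 32.9 and 122 CPM. Summed podocyte markers ranged from 321 to 758 CPM in EC2 and from 733 to 1269 CPM in EC1.

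The share of EC2 among nuclei followed the batch. EC2 made up 4.77% of all nuclei in sham replicate 1 (exact 95% interval 4.22 to 5.38%) and 5.77% in UNx replicate 1 (5.14 to 6.44%). In batch 4 it made up 2.50% (1.94 to 3.17%) in sham and 2.73% (2.21 to 3.34%) in UNx. Among EC1 and EC2 nuclei together the share of EC2 was 44.4%, 45.5%, 50.5% and 46.2%. UNx was above the sham of its batch for both denominators, but the intervals of the pairs overlapped, and they cover counting error only. The shares were not tested, since an exact permutation test (two-sided) of 2 mice against 2 cannot give a p below 0.333.

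Genes that set EC2 apart from EC1 were listed by a rule that had to hold in all 4 mice. A gene was listed where its CPM in 1 class was at least 4 times that in the other in every mouse and its mean CPM was at least 100, which gave 11 genes higher in EC2 and 11 higher in EC1. The authors' classes come from the same counts, so these differences describe the classes and carry no test. Log2 ratios are of CPM + 10 within a mouse. The promoters of the genes below are printed because these genes mark the 2 sides of that difference: each is 250 bases before to 50 after the RefSeq start on GRCm38.p6, read 5′ to 3′ along the gene's strand. Capitals mark matches, on either strand, to 1 of 6 short motifs of factor families, which are spelled out after the sequences. Nlgn1, Igf1 and Slco1a4 are high in EC2 and Btnl9 is high in EC1. Nlgn1 has 2 RefSeq starts, and the upstream one is shown.
Nlgn1, chr3:26331860-26332159, minus strand: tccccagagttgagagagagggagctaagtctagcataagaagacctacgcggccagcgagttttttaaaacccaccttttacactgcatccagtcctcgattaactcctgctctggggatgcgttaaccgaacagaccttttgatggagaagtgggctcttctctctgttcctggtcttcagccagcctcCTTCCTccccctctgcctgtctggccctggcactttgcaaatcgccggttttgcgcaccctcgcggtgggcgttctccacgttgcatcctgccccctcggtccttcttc
Igf1, chr10:87860861-87861160, plus strand: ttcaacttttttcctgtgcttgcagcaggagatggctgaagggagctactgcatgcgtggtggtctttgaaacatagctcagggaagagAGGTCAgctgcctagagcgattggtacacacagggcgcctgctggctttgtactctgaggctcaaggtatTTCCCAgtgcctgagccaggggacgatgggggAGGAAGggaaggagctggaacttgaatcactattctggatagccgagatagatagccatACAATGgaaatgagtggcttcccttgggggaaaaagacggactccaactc
Slco1a4, chr6:141856171-141856470, minus strand: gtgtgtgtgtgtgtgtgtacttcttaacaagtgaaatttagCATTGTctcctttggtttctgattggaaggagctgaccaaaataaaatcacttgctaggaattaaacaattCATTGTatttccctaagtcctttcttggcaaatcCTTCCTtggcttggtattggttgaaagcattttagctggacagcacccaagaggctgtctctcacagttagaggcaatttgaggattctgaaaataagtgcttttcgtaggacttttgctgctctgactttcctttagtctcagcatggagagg
Btnl9, chr11:49187040-49187339, minus strand: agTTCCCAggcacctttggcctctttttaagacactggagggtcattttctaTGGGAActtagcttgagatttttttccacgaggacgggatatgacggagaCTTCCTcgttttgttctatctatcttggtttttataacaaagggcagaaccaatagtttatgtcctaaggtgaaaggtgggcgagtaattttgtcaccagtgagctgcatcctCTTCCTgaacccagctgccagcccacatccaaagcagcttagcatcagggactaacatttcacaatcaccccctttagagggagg
Of 11 genes higher in EC2, 8 matched the promoter table with 11 promoters, and of 11 higher in EC1, 9 matched with 13. The motif of ETS factors, searched as AGGAAG, was in 5 of 11 EC2 promoters and 3 of 13 EC1 promoters, and in 35.4% of all 32851 promoters of that length. That of SOX factors, searched as ACAATG, was in 3 of 11, 1 of 13 and 12.6%. The motif of Krüppel-like factors, searched as GGGTGG, was in 3 of 11, 4 of 13 and 31.5%. That of RBPJ, the nuclear partner of Notch, searched as TGGGAA, was in 2 of 11, 4 of 13 and 25.6%. The site of COUP-TF factors, searched as AGGTCA, was in 1 of 11 and 0 of 13, against 16.3% of all promoters. The motif bound by the GATA family, searched on both strands with the letters AGATAA, was also in 1 of 11 and 0 of 13, against 11.2%. A match is a run of letters and does not show a bound site.

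Nlgn1 (chr3:25426215-26332460, GENCODE M21), neuroligin-1, a cell adhesion protein best known from synapses, was at 1232, 714, 1860 and 665 CPM in EC2 and at 8.80, 36.0, 4.50 and 23.1 CPM in EC1. The log2 ratio was 5.35 ± 1.43 (SD, n = 4 mice). It was held by 51.4%, 43.9%, 55.9% and 39.1% of thinned EC2 nuclei, with 0.949%, 5.06%, 0.687% and 1.87% in EC1 and 0.731%, 1.67%, 1.04% and 1.16% in PTS1. Unthinned shares were 59.6%, 59.1%, 59.9% and 56.5% in EC2 and 1.88%, 11.4%, 1.72% and 6.54% in EC1. The lowest share in EC2 was above the highest in either other class.

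Igf1 (chr10:87858265-87937042), insulin-like growth factor 1, a secreted growth factor, was at 645, 314, 758 and 301 CPM in EC2 and at 58.6, 51.5, 31.2 and 25.5 CPM in EC1, a log2 ratio of 3.25 ± 0.75 (SD, n = 4). Thinned EC2 nuclei held it in 49.4%, 34.8%, 52.9% and 28.3% of cases, EC1 nuclei in 7.28%, 13.9%, 5.5% and 2.80%, and unthinned shares were 58.4%, 59.1%, 61.3% and 53.3% in EC2 and 12.9%, 25.3%, 8.25% and 16.8% in EC1. In PTS1 the thinned share was 0 to 2.04% and the unthinned share 0.649 to 9.67%. Its binding protein Igfbp3 had the opposite pattern, at 31.5, 20.1, 20.0 and 5.60 CPM in EC2 and 461, 135, 344 and 33.0 CPM in EC1. Igf1r, the receptor of Igf1, was at a mean of 647 CPM in EC2 and 593 CPM in EC1.

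There were 9 other genes higher in EC2. Flrt2 (chr12:95692226-95785215), a membrane protein that binds Unc5 receptors, had a log2 ratio of 3.87 ± 0.62, and the semaphorin Sema3a, a neuropilin ligand, one of 2.50 ± 0.69 (SD, n = 4 each). Slco1a4, an organic anion transporter of endothelium and liver, was at 266, 89.4, 265 and 65.6 CPM in EC2 and at 25.1, 4.29, 6.41 and 2.07 CPM in EC1. Further genes were Eln, elastin, with a log2 ratio of 2.39 ± 0.64, the membrane-bound metalloproteinase Mmp16 (3.06 ± 0.42) and the fibrillin-binding protein Thsd4 (3.03 ± 0.61). The long noncoding RNA Mir100hg (2.51 ± 0.39), the heparan sulfate sulfotransferase Hs6st3 (2.30 ± 0.52) and Fam49a (2.20 ± 0.34) completed the list. Eln was at 135 CPM in the sham and 348 CPM in the UNx mouse of batch 4, but at 215 and 137 CPM in batch 3.

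The genes higher in EC1 were led by Btnl9, at 4.63, 1.54, 4.81 and 2.80 CPM in EC2 and at 286, 107, 397 and 105 CPM in EC1, a log2 ratio of -3.91 ± 0.78 (SD, n = 4). Esm1, the secreted proteoglycan endocan, was at 0 to 4.81 CPM in EC2 and at 238, 35.6, 247 and 21.7 CPM in EC1. Kdr, the main signalling receptor of VEGF, had a log2 ratio of -2.16 ± 0.24 and the mechanosensitive channel Piezo2 one of -2.94 ± 0.47. Npr3, which clears natriuretic peptides, stood at -2.57 ± 0.52 and the matrix protein Edil3 at -2.23 ± 0.26. Lrrc3b (-3.35 ± 0.63), Igfbp3 (-2.70 ± 1.02) and Ripor2, an inhibitor of RhoA (-2.23 ± 0.82), and 2 predicted genes were the rest. The VEGF co-receptor Nrp1 averaged 400 CPM in EC2 and 1228 CPM in EC1.

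**Figure D1:**
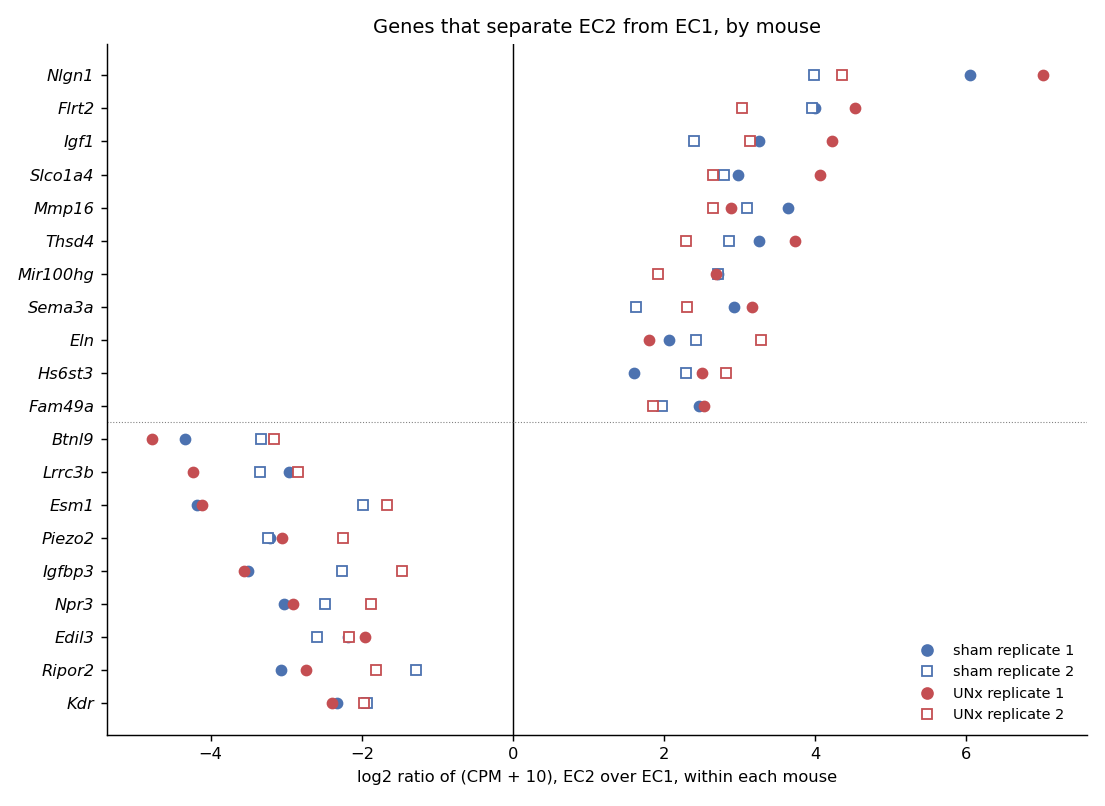
Log2 ratio of CPM + 10 in EC2 over EC1 (horizontal axis) for the 11 named genes listed as higher in EC2 (top) and the 9 named genes listed as higher in EC1 (bottom), 1 symbol per mouse. Symbols of a gene lie on 1 side of 0 in all 4 mice because the rule for listing a gene requires it. Nlgn1 has the highest mean at 5.35.

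The size of these ratios followed the batch as well. The median log2 ratio of the 11 genes higher in EC2 was 2.97 and 3.16 in the mice of batch 3 and 2.71 and 2.65 in those of batch 4. For the 11 genes higher in EC1 it was -3.22 and -3.08 against -2.60 and -1.97. Tubule RNA and mitochondrial share also differed between these batches, and their part in the ratios was not tested.

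Markers of the vascular beds were divided between the classes. The genes named from these lists were chosen after their values had been seen. Of 10 peritubular capillary markers, 6 were lower in EC2 than in EC1 in all 4 mice and 1, Plvap, was higher. Of 15 venous and ascending vasa recta markers, 8 were higher in EC2 in all 4 mice and 4 lower. Of 10 descending vasa recta markers 7 were higher and 1, Podxl, lower, and of 20 arterial markers 9 were higher and 1, Efnb2, lower. Of 12 glomerular markers 1, the plasminogen activator Plat, was higher and 3, Nostrin, Smad6 and Sgk1, were lower. Over the 10174 genes tested below, 1337 were higher in EC2 in all 4 mice and 1147 lower.

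Venous members included Nr2f2, the venous transcription factor COUP-TFII, with means of 211 CPM in EC2 and 128 CPM in EC1. Vwf, the von Willebrand factor, was at 20.4, 36.3, 32.8 and 53.2 CPM in EC2 and at 0 to 0.943 CPM in EC1. Vcam1, an adhesion molecule for leukocytes, averaged 92.9 ± 58.1 and 21.3 ± 11.7 CPM (SD, n = 4). Plvap, the diaphragm protein of fenestrae, averaged 494 and 356 CPM and the metalloproteinase Tll1 averaged 619 and 397 CPM. Nrp2 (236 and 411 CPM) and the apelin receptor Aplnr (2.42 and 22.9 CPM) were lower in EC2, against most of their list.

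Arterial members were the gap junction gene Gja5, at 12.3 to 27.3 CPM in EC2 and 0 to 5.09 CPM in EC1, the kinase Bmx (mean 20.9 and 0.452 CPM) and Vegfc (108 and 40.3 CPM). Efnb2, an arterial ephrin, averaged 49.1 CPM in EC2 and 221 CPM in EC1. Of the descending vasa recta markers, Slc14a1 was at 69.5, 40.1, 40.9 and 49.0 CPM in EC2 and at 0.801 to 5.66 CPM in EC1. The aldose reductase Akr1b3 averaged 425 and 156 CPM and the adiponectin receptor Adipor2 averaged 180 and 73.8 CPM. Lymphatic markers summed to 100 to 269 CPM in EC2, and 4 of 11 were under 1 CPM.

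VEGF and interferon genes were mostly lower in EC2. Of 14 VEGF signalling genes 8 were lower than in EC1 in all 4 mice, including the receptors Flt1, Kdr and Flt4, and 2 ligands, Vegfc and Sema3a, were higher. Of 15 interferon response genes measured, 0 had a higher mean in EC2 and 7 were lower in all 4 mice, among them Rsad2 (172 and 414 CPM) and B2m (87.1 and 150 CPM).

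**Figure D2:**
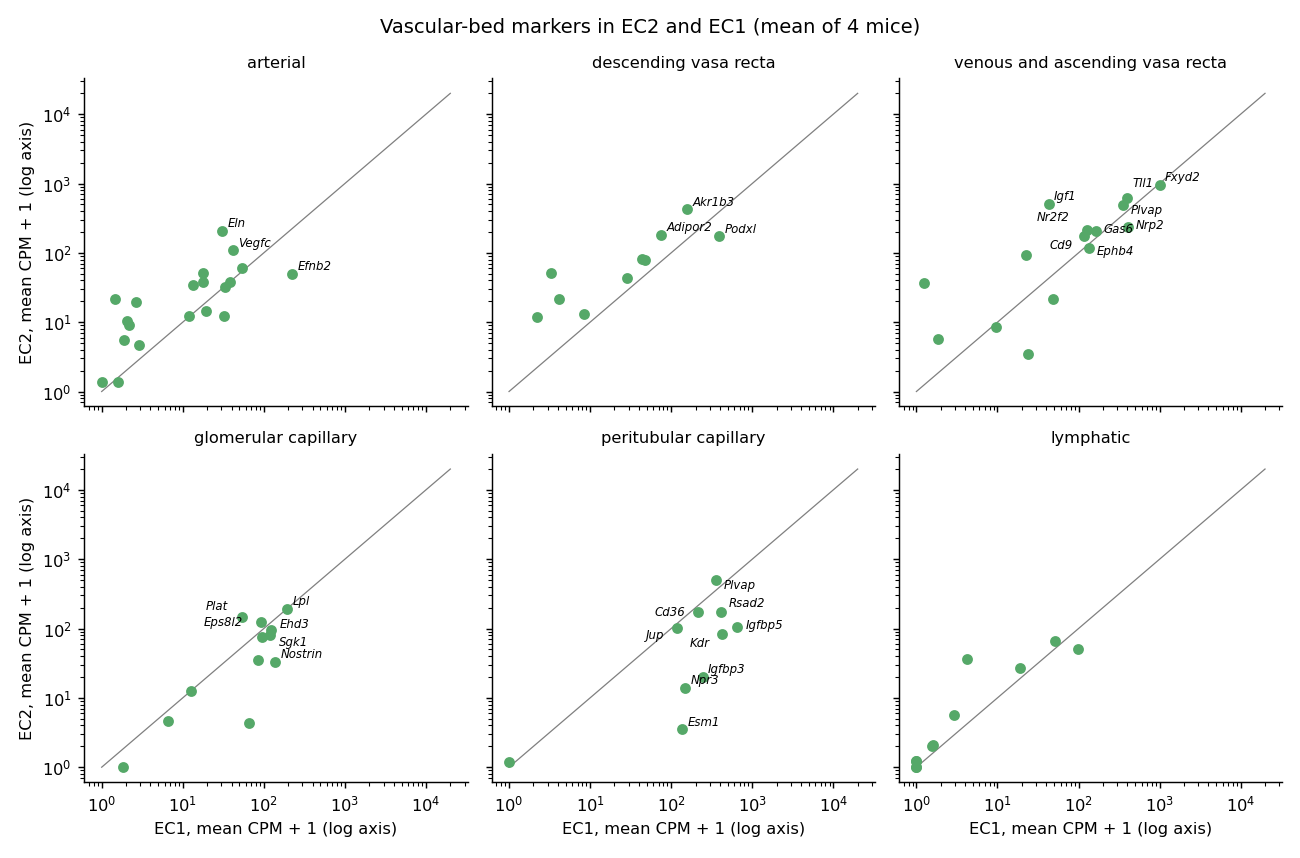
Mean CPM + 1 over 4 mice in EC1 (horizontal) and EC2 (vertical), both on log axes, 1 point per gene of 6 vascular-bed marker lists, with the line of equality. Genes with a mean of at least 100 CPM in either class are named. Igf1, Eln and Akr1b3 lie above the line and Kdr, Esm1 and Efnb2 below it.

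Pooled over mice, 7 of the 10 descending vasa recta markers were higher in EC2 nuclei with a Slc14a1 UMI than in the rest, Slc14a1 itself included by construction, and 13 of the 15 venous and ascending vasa recta markers were lower. Slc14a1 had a UMI in 49 of 710 EC2 nuclei, 19, 9, 12 and 9 by mouse. Thinned shares were 4.31%, 6.06%, 4.04% and 4.35%, with 0 to 1.87% in EC1 and 0 to 0.465% in PTS1, and unthinned shares 7.45%, 13.6%, 4.04% and 9.78%, with 0.344 to 2.80% and 0.104 to 2.42%. This split was chosen after the values had been seen and is given as a description without a test. Nuclei with Slc14a1 had a median of 5216 UMIs and those without 4169. Pooled over mice, the transcription factor Mecom was at 4768 CPM in nuclei with Slc14a1 and 649 CPM in the 661 without. The other listed descending vasa recta genes Scin (436 and 45.4 CPM), Adipor2 (823 and 138 CPM), Akr1b3 (1160 and 354 CPM) and Aqp1 (278 and 59.8 CPM) were also higher, whereas Crip1 (10.4 and 10.9 CPM), Podxl (154 and 181 CPM) and Fxyd6 (3.47 and 23.8 CPM) of that list were not. Higher as well were Cdh13 (849 and 93.2 CPM), Lef1 (544 and 55 CPM), Sox17 (153 and 24.4 CPM) and Gja5 (95.5 and 12.0 CPM).

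Of the 11 genes listed as higher in EC2 than in EC1, 10 had a lower pooled CPM in the nuclei with Slc14a1, 8 of them in every mouse. Igf1 was at 76.4 CPM in these nuclei and 599 CPM in the rest, Nlgn1 at 265 and 1327 CPM and Thsd4 at 191 and 754 CPM. Flrt2, at 229 and 589 CPM, was not lower in UNx replicate 2 (263 and 259 CPM), and Mir100hg was higher when pooled, at 219 and 169.5 CPM. Of the 13 venous markers that were lower when pooled, 6 were lower in every mouse. Among the 13 were Nrp2 (17.4 and 280 CPM), Plvap (141 and 586 CPM) and Nr2f2 (83.3 and 234 CPM). Vwf went the other way in all 4 mice, at 115 and 26.9 CPM pooled, and Fxyd2 was at 893 and 846 CPM. After thinning, Vwf was held by 2.21% of the EC2 nuclei with Nlgn1 and 7.18% of those without. The selective gene Sema3d was at 87.9 and 674 CPM. The endothelial genes were lower too when pooled, with Pecam1 at 585 and 802 CPM, Emcn at 1099 and 2038 CPM and Flt1 at 642 and 1345 CPM, and the tubule gene Kap was at 8109 and 8384 CPM. In each of the 4 mice the share of nuclei with Igf1 was lower in the nuclei with Slc14a1 (5.26%, 22.2%, 8.33% and 33.3%) than in those without (62.7%, 64.9%, 63.5% and 55.4%). Mecom was held by 91.7 to 100% of nuclei with Slc14a1, and by 18.2% and 20.0% of the others in batch 3 but 70.2% and 69.9% in batch 4. After thinning, Nlgn1 was held by 1 of the 31 nuclei that kept a Slc14a1 UMI and by 361 of the other 679.

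**Figure D3:**
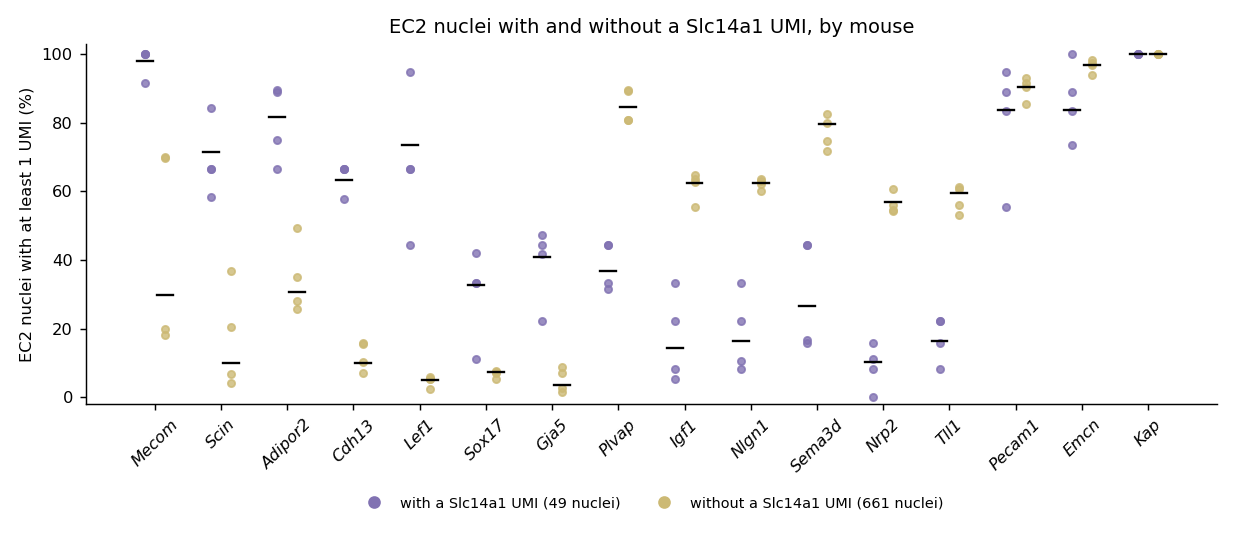
Share of EC2 nuclei with at least 1 UMI of each gene (vertical axis, unthinned), for the 49 nuclei with and the 661 without a Slc14a1 UMI. Points are the 4 mice and bars the pooled share. Mecom, Scin, Adipor2, Cdh13, Lef1, Sox17 and Gja5 have higher pooled shares in the first set, and Plvap, Igf1, Nlgn1, Sema3d, Nrp2 and Tll1 in the second. Pecam1, Emcn and Kap are common in both.

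The study asked what changes in the remaining kidney, and within EC2 no gene was called at 24 h when the batch was left out of the model. edgeR's quasi-likelihood test on the summed counts of 2 UNx against 2 sham mice, adjusted by Benjamini-Hochberg over 10174 genes, called 0 at an adjusted p under 0.05 (0.0%). At an unadjusted p under 0.05 there were 16 genes, 10 higher and 6 lower. DESeq2's Wald test and limma voom also called 0, with 7 and 14 genes at an unadjusted p under 0.05. Each of these fits counts the difference between batches as spread between mice. Their 0 thus does not show that EC2 was unchanged.

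With the batch as a block, which the labels support because each batch holds 1 sham and 1 UNx mouse, the same test called 27 genes (0.265%), 15 higher (0.147%) and 12 lower (0.118%) in UNx. With the block, 651 genes in EC2 had an unadjusted p under 0.05 in edgeR, 283 higher and 368 lower. In EC1 the fit with the block called 95 of 10643 genes, 64 higher and 31 lower. Of the 15 genes higher in EC2, 8 were mitochondrially encoded. mt-Nd3, a subunit of respiratory complex I, was at 107, 514, 258 and 1154 CPM scaled by TMM factors, a log2 fold change of 1.21 ± 0.18 (SE) at an edgeR adjusted p of 0.000174. The fit with the block leaves 1 residual degree of freedom, so its SE and p rest largely on a spread pooled over genes. The other 7 mitochondrial genes had log2 fold changes of 0.70 to 1.07, and the groups of all 8 overlapped, since the batch 4 sham was above the batch 3 UNx mouse. In EC1, without the block, the log2 differences of all 8 were 0.61 to 1.28. These genes moved with the median mitochondrial share, which was higher in UNx than in sham in each batch, and the part of that share in the calls was not tested. The rise in share was not particular to EC2. Over all nuclei the median share was 0.608%, 5.13%, 1.02% and 7.47%. In PTS1 it was 0.414%, 4.70%, 0.643% and 6.39%.

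The other higher genes were Slc22a7, G0s2, Sytl2, Nudt19, Odc1, Lepr and the predicted gene Gm42418. Without the block, their log2 differences in EC1 were 1.36 for Slc22a7, 1.31 for G0s2, 1.02 for Gm42418 and 0.95 for Odc1. Those of Nudt19 and Sytl2 were 0.87 and 0.18, and Lepr went the other way at -0.71. G0s2, an inhibitor of the lipase Pnpla2, was at 9.26, 15.9, 28.6 and 59.7 scaled CPM, with both UNx mice above both shams (log2 1.76 ± 0.43 SE, edgeR adjusted p = 0.0471 with the block). Sytl2, a vesicle trafficking protein, was at 132, 84.4, 250.9 and 208 scaled CPM, also without overlap (1.08 ± 0.22, adjusted p = 0.00631). Lepr, the leptin receptor, was at 331 and 180 in sham and 580.5 and 300 in UNx (0.78 ± 0.19, adjusted p = 0.0471), so UNx was above sham in each batch while the groups overlapped. Slc22a7, an organic anion transporter of the tubule, was at 13.0, 28.7, 28.6 and 136 scaled CPM (1.78 ± 0.35, adjusted p = 0.00631).

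Of the 12 lower genes, Btbd3, Wdr17 and Stxbp6 had both UNx mice below both shams. Btbd3 was at 194, 296, 133 and 116 scaled CPM (log2 -0.92 ± 0.21, edgeR adjusted p = 0.0389 with the block). Stxbp6, a binding partner of syntaxins, was at 211, 185, 73.8 and 133 (-1.02 ± 0.23, adjusted p = 0.0290). The others included Bcat1, Nrxn3, Rnf24, Papss2, Keg1, Nat8f1, Pdzrn3 and 4931422A03Rik. Bcat1 moved in opposite directions within the batches, with a log2 difference of 1.51 in batch 3 and -2.66 in batch 4.

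Of the 27 genes, 17 had a higher mean CPM in another class than in EC2, among them 16 of the 19 that are not mitochondrially encoded. The same share over all 10174 tested genes was not counted, so these counts do not set the called genes apart. The tubule marker sum in EC2 was higher in UNx in batch 3 (9569 against 5887 CPM) and lower in batch 4 (16000 against 18135 CPM), and its part in these calls was not tested. Over all 10174 genes, both UNx mice were above both shams for 875 (8.6%) and below them for 943 (9.27%).

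**Figure D4:**
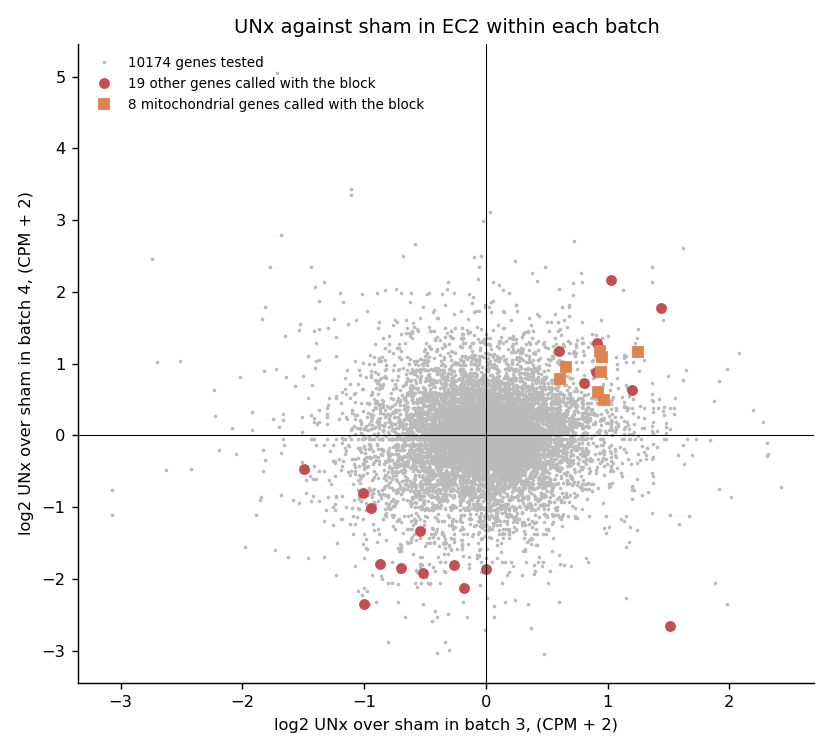
Log2 difference of UNx over sham in EC2, of CPM + 2, in batch 3 (horizontal) and batch 4 (vertical), 1 point per tested gene (10174). Squares are the 8 mitochondrially encoded genes and circles the 19 other genes called with the batch as a block. Squares lie above 0 in both batches, and 1 circle, Bcat1, lies far to the right and below 0.

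None of the genes that define EC2 was called in either fit. All 8 named EC2-selective genes and all 11 genes higher in EC2 than EC1 passed the filter on low counts, as did 7 of the 11 genes higher in EC1. The 8 selective genes had overlapping groups: Igf1 was at 644, 323, 751 and 329 scaled CPM (log2 0.16 ± 0.62 SE), Nlgn1 at 1231, 737, 1845 and 727 (0.39 ± 0.66), and Slco1a4 at 266, 92.4, 263 and 71.9 (-0.09 ± 0.82). For these 3 genes both mice of batch 3 were above both of batch 4, so overlap of the groups does not show an unchanged level. The SEs in this paragraph are from the fit without the block. Slc14a1 was at 69.4, 41.4, 40.5 and 53.6 scaled CPM (-0.25 ± 0.43).

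Of the fixed marker and pathway lists, none had a called member without the block, and with it the 1 called member was Keg1 of the proximal tubule list. The median log2 difference of the general endothelial list was 0.06, with all 17 members overlapping, beside -0.01 over all genes tested. Of those 10174 genes 8356 overlapped, while both UNx mice were above both shams for 8.6% and below for 9.27%. The summed endothelial markers were higher in both mice of batch 3 than in both of batch 4. Overlap in this list thus does not show an unchanged level. VEGF signalling (0.04, 13 of 14 members tested), angiopoietin and Tie (-0.08, 6 of 7), Notch (0.05, 10 of 16) and TGF-beta and BMP genes (0.06, 16 of 16) also had medians near that of all genes. Podocyte markers had a median of 0.34 (4 of 8 tested, 3 with both UNx mice above both shams) and cell cycle genes 0.38 (7 of 26). Higher medians were those of the shear stress and Klf genes (0.40, 10 of 12 tested, 3 with both UNx mice above both shams) and lipid uptake (0.54, 9 of 15 tested, 3 above), apart from the mural list with 1 member tested. The lowest medians were -0.66 for immune (2 of 10 tested) and -0.34 for glomerular capillary markers (9 of 12). Next were -0.32 for distal and collecting duct (7 of 9) and -0.28 for lymphatic markers (4 of 11), apart from the fibroblast list with 1 member tested.

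In the shear stress list, Nos3, the endothelial nitric oxide synthase, was at 61.1 and 43.0 scaled CPM in sham and 102 and 97.9 in UNx. Its log2 difference was 0.93 ± 0.37 (SE), with an edgeR adjusted p of 1.00 without the block and 0.158 with it. Thbd, thrombomodulin, was at 21.3 and 11.1 in sham and 46.8 and 26.0 in UNx (1.15 ± 0.56, adjusted p = 0.421 with the block), and Klf2, the flow-responsive factor, at 105, 57.3, 140 and 65.8 with overlap. In the lipid list, Cd36, a fatty acid receptor, was at 165, 121, 184 and 233 without overlap, and Lpl, lipoprotein lipase, at 40.7, 277, 96.9 and 396 with overlap. None of these passed the test, and Nos3 and Thbd were chosen as examples after their values had been seen.

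The genes with the lowest p without the block are given as values that did not pass. Upward they included D16Ertd472e, Cyth2, Tpgs2, G0s2, Slco1a1, Nolc1, Slc45a3, Sytl2 and Wdr1. Downward they included Poln, Ypel3, Asxl3, Tmem192, Nova1, Sycp3, Htatsf1, Supt4a and Btbd3. Poln, a DNA polymerase, was at 41.7 and 27.1 scaled CPM in sham and 11.1 and 7.65 in UNx (log2 -1.84 ± 0.52 SE, edgeR unadjusted p = 0.0176). Ypel3 was at 54.6, 58.9, 24.6 and 26.0. D16Ertd472e was at 2.78, 1.59, 12.7 and 19.9 scaled CPM.

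Whether the change with UNx differed between EC2 and EC1 was tested as a difference of effects with the mouse as a block. edgeR called 0 of 11587 genes (0.0%), with 287 at an unadjusted p under 0.05, so a difference between the classes was not shown for any gene. The lowest p values in the upward direction were those of Lepr, Tmem200a, Mxra8 and Tpgs2, and in the downward direction those of Bcat1, Gramd1b, Cys1 and Nrg1. For Lepr the log2 effect was 0.78 in EC2 and -0.71 in EC1, a difference of 1.48 ± 0.29 (SE, unadjusted p = 0.000544, edgeR adjusted p = 1). Without sham replicate 2, which leaves 1 sham mouse that is assumed to vary like the others, the same test called 25 genes, all with a lower log2 effect of UNx in EC2 than in EC1.

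Genes selective for EC2 were also looked up in whole kidney. A gene was called selective where its mean in EC2 was at least 100 CPM and at least 2 times that of each of the other 22 classes with enough nuclei, and 9 genes met this. Named ones, with the fold over the next class, were Slco1a4 (18.1, EC1), Nlgn1 (17.9, ICB), Igf1 (6.27, PEC), Flrt2 (5.01, Per), the secreted semaphorin Sema3d (4.89, EC1), the cadherin mannosyltransferase Tmtc1 (3.36, Per), the synuclein-binding protein Sncaip (2.56, EC1) and Eln (2.17, PEC). Classes with fewer than 10 nuclei in a mouse could not be compared. Part of the RNA of these genes lay outside EC2: of all nuclear counts of a gene in a mouse, EC2 held 37.0 to 86.7% for Nlgn1, 22.9 to 69.5% for Igf1, 32.9 to 80.8% for Sema3d, 25.0 to 76.7% for Flrt2 and 14.4 to 51.9% for Tmtc1. For each of these 5 genes both mice of batch 4 were below both of batch 3, and bulk values are thus not those of EC2 alone. In bulk tissue, fewer cells of a type and less RNA per cell cannot be told apart. Bulk values are TMM-scaled CPM of 6 libraries per group, tested with edgeR over all genes, and Nlgn1 was too low to be tested there.

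At 24 h, the time of the nuclei, none of the 7 tested EC2-selective genes was called in bulk, where 27.3% of 14104 genes were (14.2% higher, 13.1% lower). Igf1 had a lowest, median and highest value of 4.98, 9.15 and 10.8 CPM in sham and 7.85, 9.8 and 18.1 CPM in UNx. Its log2 fold change was 0.28 ± 0.20 (SE, edgeR adjusted p = 0.332). Of the genes higher in EC2 than in EC1, Thsd4 was higher in UNx, with 9.1, 10.7 and 11.1 CPM in sham and 10.7, 12.4 and 15.2 CPM in UNx (0.33 ± 0.09, adjusted p = 0.0164), although 3 other classes, MD among them, had a higher mean of it than EC2. This call was lost with the mitochondrial share as a covariate (0.39, adjusted p = 0.111). In that fit, which left 4.8% of genes called (3.33% higher, 1.47% lower), Eln was higher at a log2 of 0.94 (adjusted p = 0.0475), beside 0.51 ± 0.22 (adjusted p = 0.108) without it. Flrt2 was above the sham mean in all 6 UNx libraries and did not pass (0.23 ± 0.14, adjusted p = 0.248).

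At 48 h, 4 of the 7 tested EC2-selective genes were lower in UNx, where 16.0% of 14280 genes were called lower and 16.9% higher. Sema3d had 5.57, 6.97 and 8.48 CPM in sham and 3.15, 4.39 and 5.79 CPM in UNx, and its groups overlapped narrowly. The log2 fold change was -0.69 ± 0.15 (SE, edgeR adjusted p = 0.00364). Tmtc1 had 13.9, 14.6 and 18 CPM in sham and 8.94, 9.88 and 12.4 CPM in UNx, without overlap (-0.59 ± 0.10, adjusted p = 0.00135). Igf1 fell from 8.92, 14.8 and 16.4 CPM to 4.39, 9.59 and 10.3 CPM (-0.62 ± 0.19, adjusted p = 0.0239) and Flrt2 from 2.74, 4.57 and 5.22 CPM to 2.42, 2.81 and 3.66 CPM (-0.49 ± 0.17, adjusted p = 0.0421). All 6 UNx libraries were below the sham mean for each of these 4 genes. The call of Flrt2 was lost with DESeq2 size factors (adjusted p = 0.0511), without the filter (0.0679) and without mitochondrially encoded genes (0.0509). Eln, Slco1a4 and Sncaip were not called.

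The library composition differed at 48 h: mitochondrially encoded RNA made up 14.0 to 15.5% of sham counts and 25.8 to 26.4% in UNx replicates 1 to 5, but 15.2% in UNx replicate 6. At 24 h, under another batch label, it made up 23.5 to 26.7% in sham and 21.5 to 24.9% in UNx. At 72 h it made up 13.6 to 15.2% in sham and 14.2 to 16.1% in UNx. With the mitochondrial share as a covariate at 48 h, 0 of 14280 genes were called (0.0%), with 1713 at an unadjusted p under 0.05 in edgeR. The log2 fold changes of the 4 genes in that fit were -0.60 for Sema3d, -0.73 for Tmtc1, -0.61 for Igf1 and -0.63 for Flrt2, with adjusted p from 0.318 to 0.540. UNx replicate 6 was the only UNx library with a share near that of the shams, so the covariate fit rests largely on it. Against the 6 shams this library had log2 differences of -0.59 for Sema3d, -0.72 for Tmtc1, -0.63 for Igf1 and -0.60 for Flrt2. These values are not a second check, since the same library carries the covariate fit and is part of the fit with all libraries. With all libraries and no covariate, the median over the 7 genes was -0.49. Genes higher in EC1 had 1 of 9 tested lower, Esm1 (-0.65 ± 0.13, adjusted p = 0.00304), which was also lower at 24 h (-0.51 ± 0.11, adjusted p = 0.00423). With the mitochondrial covariate neither call of Esm1 held (-0.53 at 48 h, adjusted p = 0.446, and -0.55 at 24 h, adjusted p = 0.0809). Of 17 general endothelial genes 6 were lower at 48 h and 1, Sox18, higher.

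At 72 h none of the 7 genes was called, where 1.71% of 14556 genes were (1.21% higher, 0.502% lower), nor with the mitochondrial covariate, where 1.18% were (0.955% higher, 0.227% lower). Igf1 had 13.1, 13.8 and 18 CPM in sham and 9.55, 12.5 and 13.3 CPM in UNx (-0.33 ± 0.11 SE, edgeR adjusted p = 0.148), with all 6 UNx libraries below the sham mean. Sema3d (-0.30 ± 0.20, adjusted p = 0.482) and Tmtc1 (-0.09 ± 0.20, adjusted p = 0.88) did not pass. Sham replicate 5 and UNx replicate 6 stood above the other libraries of their groups for Tmtc1 and also for general endothelial genes, with Emcn at 87.8 and 107 CPM against 49.7 to 57.9 and 48.0 to 56.7 CPM, and Pecam1 at 86.2 and 97.4 CPM against 61.7 to 72.2 and 55.6 to 61.5 CPM. Without both libraries, a fit added after the values had been seen, 672 of 14541 genes were called and 0 of the 7. Tmtc1 was then at a log2 of -0.18 (adjusted p = 0.126), Sema3d at -0.32 (0.178) and Igf1 at -0.30 (0.136). Of the genes plotted by library, Tmtc1 at 48 h was without overlap between the groups, while Igf1, Sema3d and Flrt2 overlapped at every time.

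**Figure D5:**
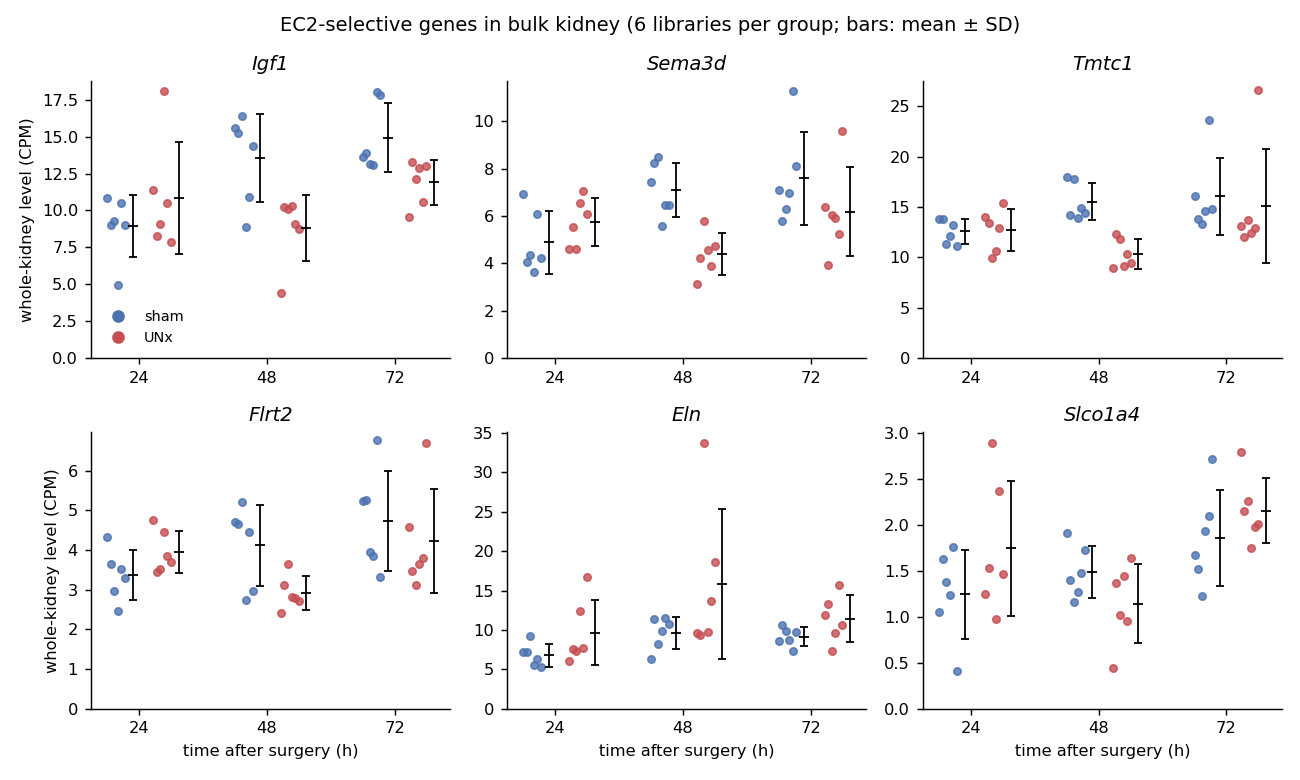
Whole-kidney CPM (vertical axes, from 0) of 6 EC2-selective genes at 24, 48 and 72 h after surgery, 6 sham and 6 UNx libraries per time, with mean ± SD beside the points. At 48 h the UNx values of Tmtc1 lie below all sham values, and those of Eln spread up to 33.7 CPM.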

How the data were processed

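Nuclei of 4 kidneys were sorted by a DNA stain and read with a droplet kit at the 3′ end of transcripts; bulk libraries used stranded polyadenylated RNA, per the labels' protocols. Both deposited tables hold estimated counts, not normalized as far as their values show. Per the submitters' processing notes, alevin, Seurat and mm10 were used for the nuclei and FastQC 0.11.8, Salmon 1.5.0, R 4.10 and GRCm39 for bulk; their settings were not found in the labels. Of nonzero nucleus values 13.9% were not whole, and the lowest UMI total of a nucleus was 1755. Doublet treatment is not given and no caller was run. Coordinates are from GENCODE M21 (GRCm38, mm10) and promoters from RefSeq.

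Counts were summed per mouse and class (0.648 to 1.25 M UMIs for EC2), rounded, filtered with filterByExpr, and tested two-sided in edgeR 4.0.16 (quasi-likelihood, TMM) under R 4.3.3. DESeq2 1.42.0, limma 3.58.1, other filters, left-out mice and a mitochondrial covariate were alternatives. Bulk libraries held 14.9 to 24.1 M counts. The replicate numbers pair the mice because the labels give each number 1 batch, and same-numbered EC2 sums deviated together (r = 0.776 across 10174 genes). Mice, not nuclei, are the replicates; each library is 1 mouse per the labels. SE is the log2 fold change over the square root of F. Members, lists and tests were chosen with earlier results of these data known. Named genes were, for UNx, called genes first and, since none was called, the 10 lowest p values per direction, 4 per direction for the difference of effects, up to 12 per direction between EC2 and EC1, and up to 10 selective genes; predicted genes were passed over. Some genes that met these rules are not reported here. The scripts were tested on simulated data.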

Additional observations from a re-analysis of the deposited data

Results flagged for a closer look

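In the 42 bulk groups of 6 libraries checked for the EC2-selective genes, 7 had a library whose gap to the next exceeded Dixon's 95% critical value relative to the group's range. Chance marks about 1 in 20 groups. For Igf1 these were sham replicate 4 at 24 h, lowest at 4.98 CPM with the next at 9.03, UNx replicate 4 at 24 h, highest at 18.1 CPM with the next at 11.4, and UNx replicate 1 at 48 h, lowest at 4.39 CPM with the next at 8.72. At 72 h, 2 libraries were highest for both Sncaip and Tmtc1. Sham replicate 5 had 4.44 CPM of Sncaip and 23.7 CPM of Tmtc1, with the next at 3.48 and 16.1. UNx replicate 6 had 5.29 and 26.6 CPM, with the next at 3.11 and 13.7. The same 2 libraries were highest in their groups for Sema3d (11.3 and 9.58 CPM), Flrt2 (6.77 and 6.71 CPM), Emcn (87.8 and 107 CPM) and Pecam1 (86.2 and 97.4 CPM).

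Flrt2 lay above the sham mean in all 6 UNx libraries at 24 h and below it in all 6 at 48 h. The log2 fold changes differed by -0.72 between 48 h and 24 h. This difference was not tested, and the 24 h libraries carry another batch label than those of 48 h.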

How the results depend on the processing

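Within EC2 the count of genes called between UNx and sham stayed at 0 under DESeq2 size factors, the DESeq2 Wald test, limma voom, no filter, at least 10 counts in every sum, no mitochondrially encoded genes, equal nuclei and each left-out mouse. All of those settings leave the batch out of the model, so their counts are not independent checks of each other. The replicate block, with pairs given by the batch labels, gave 27. For the difference of effects the count of 0 became 2 without the filter, 1 with equal nuclei and 0 to 25 over left-out mice (25 without sham replicate 2); with the replicate block in place of the mouse it stayed at 0. Genes higher in EC2 than EC1 numbered 4 at 8 times, 39 at 2 times, 6 at a mean of 200 CPM, 17 with the mean of per-nucleus CPM and 9 to 21 over left-out mice (21 without UNx replicate 2), against 11. Genes higher in EC1 numbered 5, 41, 7 and, over left-out mice, 9 to 17 (17 without UNx replicate 2). EC2-selective genes numbered 5 at 4 times, against 9. Bulk calls with the mitochondrial share as a covariate were 677 at 24 h and 0 at 48 h. At 72 h the replicate block gave 120 and the DESeq2 Wald test 664, against 249; without sham replicate 5 and UNx replicate 6, chosen after seeing the data, 672 were called. Of the EC2-selective genes in bulk, the covariate gave 1 call at 24 h (Eln), against 0 without it, and 0 at 48 h, against 4. It turned Flrt2 to -0.052 and Tmtc1 to -0.023 at 24 h, Slco1a4 to 0.18 and Sncaip to -0.36 at 48 h, and Tmtc1 to 0.10 and Sncaip to 0.052 at 72 h. UNx replicate 6 alone turned Slco1a4 to 0.14 and Sncaip to -0.38; none of these was called. The causes were not tested. Of the 20 genes named for EC2, 3 were called with the block. None changed direction, but they were chosen for the lowest p in the fit without the block, which itself favours an unchanged direction. A pair of mice per group limits the EC2 tests, and 1 sham sum rests on 66 nuclei.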
